A study of Mus musculus with 134 samples.

Results

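The small nucleolar RNA (snoRNA) and small Cajal body RNA (scaRNA) genes were described in the bulk expression libraries of a mouse embryonic stem cell (mESC) study. They were the genes whose symbols begin with Snord, Snora or Scarna, 116 of the 25209 genes counted. Of these, 71 were Snord genes, 36 were Snora genes and 9 were Scarna genes. All 54 bulk libraries were used, and levels are given as CPM, the counts on a gene scaled to a fixed total of gene counts without Rn45s, the ribosomal RNA precursor gene.

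Snord genes encode box C/D snoRNAs, which pair with ribosomal RNA (rRNA) in the nucleolus and guide ribose methylation by fibrillarin. Snora genes encode box H/ACA snoRNAs, which guide pseudouridylation by dyskerin. The scaRNAs carry the same boxes but modify spliceosomal RNAs in Cajal bodies. In mammals most of these RNAs lie in introns of a host gene, are released from the debranched intron by trimming and carry no poly(A) tail. Oligo-dT primes reverse transcription from a poly(A) tail, so reads on these genes can come from the host transcript or another longer RNA across the same bases, and in these counts such reads cannot be told apart from reads of the mature snoRNA.

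The sequences of the genes on which the comparisons turned are shown so that their size and boxes can be seen, read from the mm9 genome on the strand of the gene. Capitals mark TGATGA, the core of box C, within the first 20 bases, CTGA, box D, within the last 20 bases of Snord genes, and ACA within the last 6 bases of Snora genes. A run of CTGATGA would hold both C/D motifs. Snora65 lay at chr2:32818821-32818938 (+), Snord104 at chr11:106362305-106362377 (+), Snord96a at chr11:48615535-48615611 (+), Snord22 at chr19:8800356-8800481 (+) and Snord52 at chr17:35087895-35087953 (-). Snora61 lay at chr4:131866222-131866283 (+), Snora81 at chr16:23110843-23111006 (+), and Snord49b and Snord49a in neighbouring introns at chr11:62416588-62416650 (+) and chr11:62416962-62417023 (+).
Snora65: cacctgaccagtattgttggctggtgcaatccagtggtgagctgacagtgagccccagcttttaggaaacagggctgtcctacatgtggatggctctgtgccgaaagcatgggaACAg
Snord104: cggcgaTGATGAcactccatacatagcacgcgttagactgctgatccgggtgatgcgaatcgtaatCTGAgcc
Snord96a: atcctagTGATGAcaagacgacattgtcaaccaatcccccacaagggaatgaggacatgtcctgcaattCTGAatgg
Snord22: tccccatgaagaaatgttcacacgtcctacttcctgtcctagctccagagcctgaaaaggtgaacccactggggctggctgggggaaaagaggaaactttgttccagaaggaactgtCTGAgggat
Snord52: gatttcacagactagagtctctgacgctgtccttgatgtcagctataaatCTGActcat
Snora61: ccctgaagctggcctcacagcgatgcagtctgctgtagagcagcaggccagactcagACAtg
Snora81: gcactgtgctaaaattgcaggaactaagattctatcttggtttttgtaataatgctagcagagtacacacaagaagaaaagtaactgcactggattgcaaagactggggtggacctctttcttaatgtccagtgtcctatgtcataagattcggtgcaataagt
Snord49b: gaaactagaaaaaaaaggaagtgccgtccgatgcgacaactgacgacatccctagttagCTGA
Snord49a: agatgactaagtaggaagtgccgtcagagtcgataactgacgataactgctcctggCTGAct

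CTGA was found in this window in 67 of the 68 Snord genes with a single locus on the assembled chromosomes (98.5%), against 10.8% of 1186 other single-locus genes of at most 350 bases. TGATGA was found in 20 of the 68 (29.4%), against 0.843% of the other short genes. ACA was found in 33 of the 35 single-locus Snora genes (94.3%), against 11.3% of the other short genes. The motifs were searched on the strand of the gene alone, and Snora81 held no ACA in its last 6 bases. A missing match says only that these letters are absent from this window.

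The cells were labelled E14 of strain 129/Ola and named ES-E14TG2a in the study's methods, a feeder-independent mESC line grown in serum with leukemia inhibitory factor, and each of the 27 conditions had 2 libraries. In the in vitro libraries, total RNA was reverse transcribed with oligo-dT and the RNA/cDNA hybrids were cut and tagged directly by Tn5, at 16 or 37 °C for 5, 10, 15 or 30 min, with 25, 50 or 100 ng/µl Tn5, or from 300 ng, 3 ng or 30 pg of RNA. In SET-seq the same chemistry was applied to the cytoplasmic supernatant left after nuclei were bound to beads. Libraries from 10, 100, 1000 or 10000 untreated cells had titles that name no antibody, and they are called without antibody here. Others came from 100, 1000 or 10000 cells whose nuclei went to H3K4me3 or H3K27me3 profiling (co-assay). The ligation-based libraries were made from fragmented poly(A) RNA with random primers and adapter ligation. Aebp2 knockout (KO) libraries came from the supernatant of KO1 and KO2, clones edited by CRISPR with different guides in Aebp2, which encodes an accessory subunit of a Polycomb repressive complex, and their cell number is not given in the sources used here.

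The libraries held 235040 to 21520982 counts, of which Rn45s took 1.55 to 84.6%. SET-seq libraries from 10 cells replicate 2 and 1000 cells replicate 2 had fewer than 250000 counts and stand apart in what follows. Summed levels of 8 mESC markers ranged from 3510 to 8540 CPM over all libraries, against 1.38 to 37.1 CPM for 5 primitive endoderm markers and 0 to 29.0 CPM for 5 fibroblast markers. ES-E14TG2a is known for a deletion in Hprt, a purine salvage gene. Hprt was at most 1.29 CPM in the in vitro libraries at 16 or 37 °C, 0.409 CPM in those with varied Tn5 and 2.14 CPM in KO, but 66.2 to 478 CPM in SET-seq, 273 to 485 CPM in the co-assay and 181.2 and 184.3 CPM after ligation. The libraries of the SET-seq, co-assay and ligation groups thus go against the named line, and every comparison below but that of temperatures sets them beside libraries with almost no Hprt. No pair of replicates agreed within counting noise, with chi-square per degree of freedom of at least 1.47. The study describes the replicates at 16 and 37 °C and those of KO as independent. For the others, among them those with varied Tn5 or RNA, no separate cultures are named. Where these others enter a test, its p-values measure a spread between libraries that may be technical.

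The Snord genes had a median length of 68 bases, the Snora genes 119.5 bases and the Scarna genes 118 bases. In the deposited coordinates a host gene on the same strand contained 110 of the 116, and 6 had none: Snord104, Snord13, Snord118, Snord89, Scarna2 and Scarna17. A host missing from those coordinates would not be seen. The hosts numbered 85, and they included genes of ribosomal proteins or Rack1 for 33 snoRNA genes. A list of noncoding hosts (Snhg genes, Gas5, Dancr, Zfas1 and 2410006H16Rik) held 23, and other genes held 54. These other genes include 1110038B12Rik, the noncoding host of Snord52. Exon bases were shared with another gene in 15 of the 116, and in 8 of these the whole snoRNA gene lay in such exons. All 8 were at 0 counts in every library, since reads over more than 1 gene were not counted. A GENCODE exon of a longer transcript on the same strand overlapped 35 of the 116, and in 22 of these that transcript was annotated as a retained intron. Among the genes with the highest mean levels, the 35 include Snora65, Snord52, Snora43, Snord96a, Snord22, Snord99 and Snora61, but not Snord104 or Snora68. Introns named below are those of the deposited coordinates. Counts were found for 103 of the 116 genes in at least 1 library, and 13 were at 0 throughout.

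The genes took a small share of the counts in every kind of library. In the 16 °C libraries they took 73.7 CPM in the lowest, a median of 85.4 and 88.8 in the highest library (mean 83.4 ± 5.77, SD, n = 8). In the 37 °C libraries the lowest, median and highest were 61.8, 74.8 and 84.6 CPM (mean 74.5 ± 6.94, SD, n = 8). The ranges overlapped, the 37 °C libraries lying lower, and for single libraries the exact Clopper-Pearson 95% interval reached from 66.7 to 106 CPM in the 37 °C, 5 min library with 77 counts on these genes. Such intervals cover counting error only, since reads carried no molecular identifiers. With Rn45s kept in the total, the mean was 68.9 CPM at 16 °C and 47.1 CPM at 37 °C. Rn45s took 11.8 to 25.1% of counts at 16 °C and 33.0 to 40.7% at 37 °C.

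**Figure D1:**
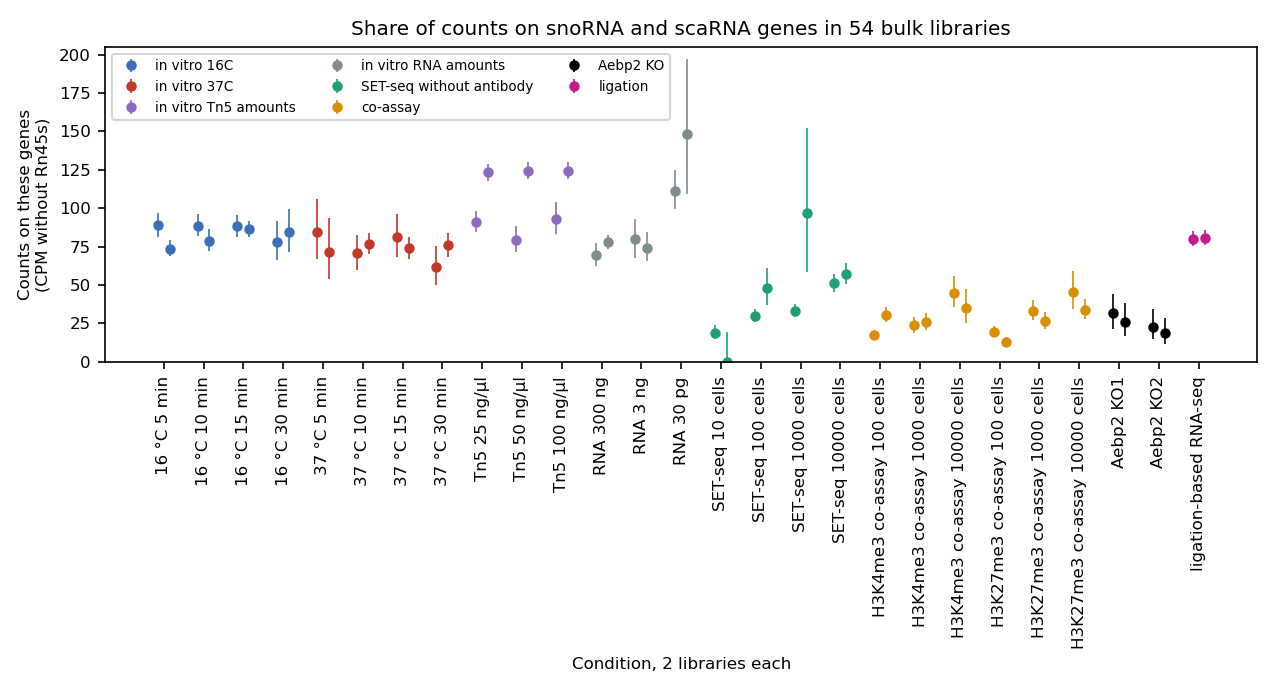
Share of counts on the 116 genes in each of the 54 libraries, in CPM without Rn45s on the vertical axis, with the 27 conditions along the horizontal axis. Points are libraries, bars are exact 95% counting intervals and colours are kinds of library. Most of the in vitro and ligation-based libraries lie between 60 and 130 CPM, and most of those from cytoplasm lie below 60 CPM.

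SET-seq libraries without antibody held less. The 10-cell libraries took 19.0 and 0 CPM, the 100-cell libraries 29.9 and 47.7 CPM, the 1000-cell libraries 33.1 and 97.2 CPM and the 10000-cell libraries 51.2 and 57.1 CPM. The mean was 41.9 ± 29.1 CPM (SD, n = 8). The library at 0 held 188275 counts without Rn45s, at which a count of 0 allows up to 15.9 CPM, and the library at 97.2 CPM rested on 19 counts with an interval of 58.5 to 152 CPM. Without these 2 shallow libraries the range was 19.0 to 57.1 CPM.

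The in vitro libraries nearest in protocol, tagmented at 37 °C for 5 min or made from 300 ng of RNA, took 84.6, 71.6, 69.5 and 77.7 CPM (mean 75.9 ± 6.77, SD, n = 4). All 6 deeper SET-seq libraries lay below them. The ratio of the means was 0.552 over all genes, 0.683 for Snord genes and 0.43 for Snora genes. The difference of the means was -34.0 CPM with Snora65 and -13.0 CPM without it. In bulk samples, fewer cells with a transcript and less transcript per cell cannot be told apart.

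The co-assay libraries lay in the same low range. With H3K4me3 they took 17.1 and 30.5 CPM from 100 cells, 23.7 and 26.0 CPM from 1000 cells and 44.9 and 35.2 CPM from 10000 cells. With H3K27me3 they took 19.5 and 13.1 CPM from 100 cells, 33.1 and 26.4 CPM from 1000 cells and 45.3 and 33.9 CPM from 10000 cells. In both series the libraries from 10000 cells lay above all others of that series.

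Ligation-based libraries took 80.1 and 80.6 CPM, inside the range of 61.8 to 88.8 CPM of the 16 in vitro libraries tagmented at 16 or 37 °C (mean 79.0 ± 7.68, SD, n = 16). Without Snora65 the means were 75.5 CPM after ligation and 55.8 CPM in vitro, so the likeness of the sums rested on this gene. Snord genes took 50.1 and 49.3 CPM after ligation and 29.0 to 52.4 CPM in vitro. Snora genes took 29.2 and 30.6 CPM after ligation and 30.5 to 49.0 CPM in vitro. Scarna genes stayed at or below 5.35 CPM in all 54 libraries.

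Of the 116 genes, 87 and 85 had a count in the ligation-based libraries, 32 to 70 in those at 16 °C, 23 to 57 in those at 37 °C, 0 to 52 in SET-seq, 6 to 42 in the co-assay and 13 to 17 in KO libraries. These numbers follow depth, so the number expected at a common depth of 900000 counts was computed. It was 38.9 and 38.2 after ligation, 22.3 to 26.6 at 16 °C, 23.7 to 26.5 at 37 °C, 6.66 to 25.5 in SET-seq, 4.64 to 20.9 in the co-assay and 11.1 to 15.8 in KO libraries. The ligation-based libraries were above every other library that reached this depth, the highest of which was at 29.7.

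**Figure D2:**
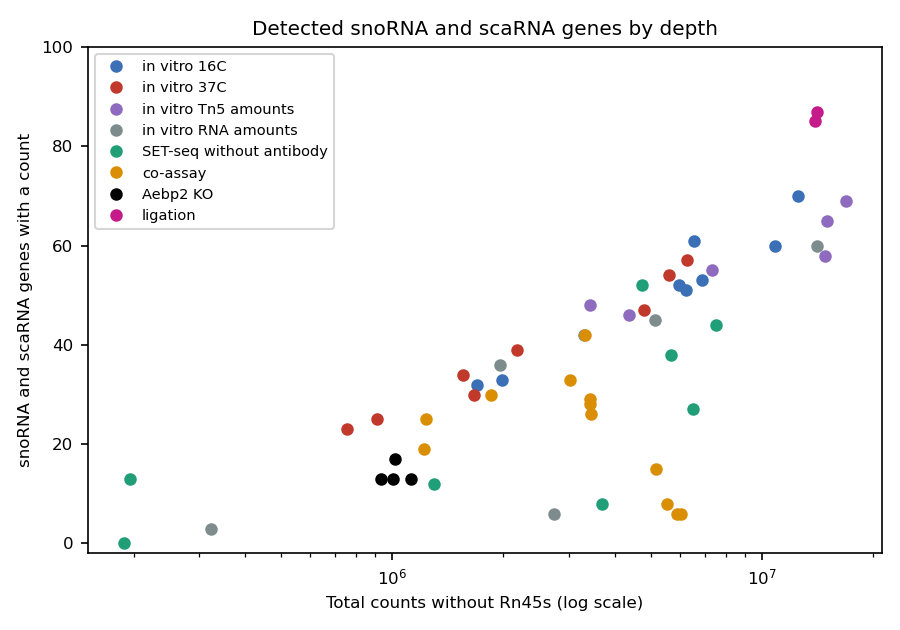
Number of the 116 genes with at least 1 count (vertical axis) against counts without Rn45s on a log axis (horizontal), 1 point per library, coloured by kind. The ligation-based libraries, at 87 and 85 genes, lie above all others.

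Counts after tagmentation were held by few genes. The gene with most counts took 23.4 to 35.9% of counts on these genes at 16 °C and 22.2 to 35.4% at 37 °C, and it was Snora65 in all 16 libraries. The 5 genes with most counts took 57.7 to 67.8% at 16 °C. After ligation the leading gene took 7.54 and 6.78%, and the leading 5 took 24.9 and 27.6%.

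Averaged over the 27 conditions, Snora65 had 12.8 CPM, Snord104 10.1 CPM, Snord52 3.59 CPM, Snora68 2.42 CPM, Snora43 2.31 CPM, Snord96a 2.13 CPM, Snord22 1.91 CPM, Snord99 1.90 CPM and Snora61 1.57 CPM. Per kilobase of gene length, Snord104 came first with 138.8 CPM per kb, ahead of Snora65 with 108.6 and Snord52 with 60.8 CPM per kb. Snora65 and Snora68 guide pseudouridylation of large-subunit rRNA, and Snord104 and Snord52 guide its methylation. The mean of Snora43 owed much to the 30 pg replicate 2 library, where it had 80.4 CPM on 26 counts. Length itself ran with little of this: the rank correlation of length with level over the 116 genes was 0.0113 at 16 °C, -0.0811 at 37 °C, 0.131 in SET-seq and 0.0066 after ligation, a description over genes that share libraries. The 70 genes shorter than 100 bases held 55.1% of counts on these genes at 16 °C, 50.0% at 37 °C, 61.5% in SET-seq and 58.8% after ligation.

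The first comparison asked how tagmentation temperature bears on these genes, over 8 libraries at 37 °C and 8 at 16 °C with time as a term. Of the 116 genes, 11 had counts enough to be tested by edgeR's quasi-likelihood test, and with Benjamini-Hochberg adjustment below 0.05 over all 11788 genes tested, 2 rose and 4 fell at 37 °C. Of all genes tested, 32.0% rose and 31.4% fell. The median log2 fold change was -0.19 over the 11 genes and 0.00 over all genes. Of 13 other genes of at most 350 bases, 10 rose and 1 fell, with a median of 1.29. Without the library at 37 °C, 15 min, replicate 2, 1 of the 10 genes then tested rose, and 4 of 16 or 17 rose without 16 °C, 30 min, replicate 1 or 2, or 37 °C replicate 1 at 5 or 10 min or replicate 2 at 30 min.

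Snord96a, in an intron of Rack1, guides methylation of an rRNA of the large subunit. It had 1.25 CPM in the lowest, 1.61 in the median and 3.30 in the highest 37 °C library, against 4.73, 7.09 and 14.6 CPM at 16 °C. The groups did not overlap, and it fell by 2.19 ± 0.27 (log2, SE; edgeR adjusted p = 4.44e-08). Snord96a had counts enough for the test through 16 °C libraries alone, so it could be called only as lower. Its host Rack1 had a log2 fold change of -0.12 ± 0.07 (edgeR adjusted p = 0.132).

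Snord52, in an intron of the noncoding gene 1110038B12Rik, had 1.33, 2.65 and 4.79 CPM (lowest, median, highest) at 37 °C against 4.49, 5.79 and 8.87 CPM at 16 °C. The groups met only at their edges, and Snord52 fell by 1.04 ± 0.21 on the log2 scale (edgeR adjusted p = 0.000104). Snora68 had 0, 1.23 and 3.30 CPM against 1.77, 2.38 and 4.42 CPM. The groups overlapped through the library of 37 °C, 5 min, replicate 1, where 3 counts gave the highest value, and Snora68 fell by 1.11 ± 0.36 (edgeR adjusted p = 0.0082). Snora68 likewise had counts enough through 16 °C libraries alone and could be called only as lower, whereas Snord52 had them in both groups.

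Snord33, in Rpl13a, guides methylation of small-subunit rRNA. It had 0.168, 1.59 and 2.25 CPM at 16 °C, on 76 counts, and 3 counts over all 8 libraries at 37 °C, where 6 were at 0. Most 37 °C libraries lay below all those at 16 °C, and the exception was replicate 2 at 5 min with 2.65 CPM on 2 counts. The pooled level was 11.4 times lower at 37 °C, with a counting interval of 3.76 to 56.6 times (edgeR adjusted p = 0.000216). Of its 82 bases, 28 are also exon bases of another gene.

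Snord22, in Snhg1, is needed for small-subunit rRNA processing and is not known as a methylation guide. It had 0.644, 4.07 and 6.42 CPM at 37 °C against 0.321, 0.60 and 1.01 CPM at 16 °C. The groups overlapped only through the library of 37 °C, 30 min, replicate 1. Snord22 had counts enough for the test through 37 °C libraries alone, so it could be called only as higher. Snord22 rose by 2.88 ± 0.33 on the log2 scale (edgeR adjusted p = 1.57e-08), and its host Snhg1 rose by 0.88 ± 0.09 (edgeR adjusted p = 1.01e-09).

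Snord49b, in 2410006H16Rik beside Snord49a, had 0, 1.80 and 3.00 CPM at 37 °C against 0, 0.0922 and 1.01 CPM at 16 °C. Most libraries at 37 °C were above all those at 16 °C, with overlap at 0 and at the highest 16 °C library, and Snord49b rose by 2.86 ± 0.55 (edgeR adjusted p = 5.18e-05). Its host fell by 0.20 ± 0.07 (edgeR adjusted p = 0.00883). Snord49b too had counts enough for the test through 37 °C libraries alone. Reads that matched several places equally were not counted.

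The most abundant genes did not pass the test with temperature. Snora65 had 15.9, 21.3 and 26.4 CPM at 37 °C and 20.8, 24.9 and 31.7 CPM at 16 °C, with a log2 fold change of -0.19 ± 0.11 (edgeR adjusted p = 0.126). Snord104 had 5.15, 9.06 and 16.5 CPM against 6.55, 9.99 and 15.4 CPM, with -0.11 ± 0.18 (edgeR adjusted p = 0.605). In both cases the groups overlapped widely. Snora61, Snord99 and Snord55 had log2 fold changes of 0.24, 0.53 and -0.57 and did not pass either, and they complete the 11 tested. Genes in the listed noncoding hosts held a median of 9.91% of counts on the 116 genes at 16 °C (7.20 to 13.6%) and 23.4% at 37 °C (13.0 to 33.3%). Snord52, whose noncoding host is not on that list, went the other way, with medians of 5.79 CPM at 16 °C and 2.65 CPM at 37 °C. The size of the contrast thus depends on the list. The share of Rn45s moved with temperature too, and its part in these differences was not tested.

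**Figure D3:**
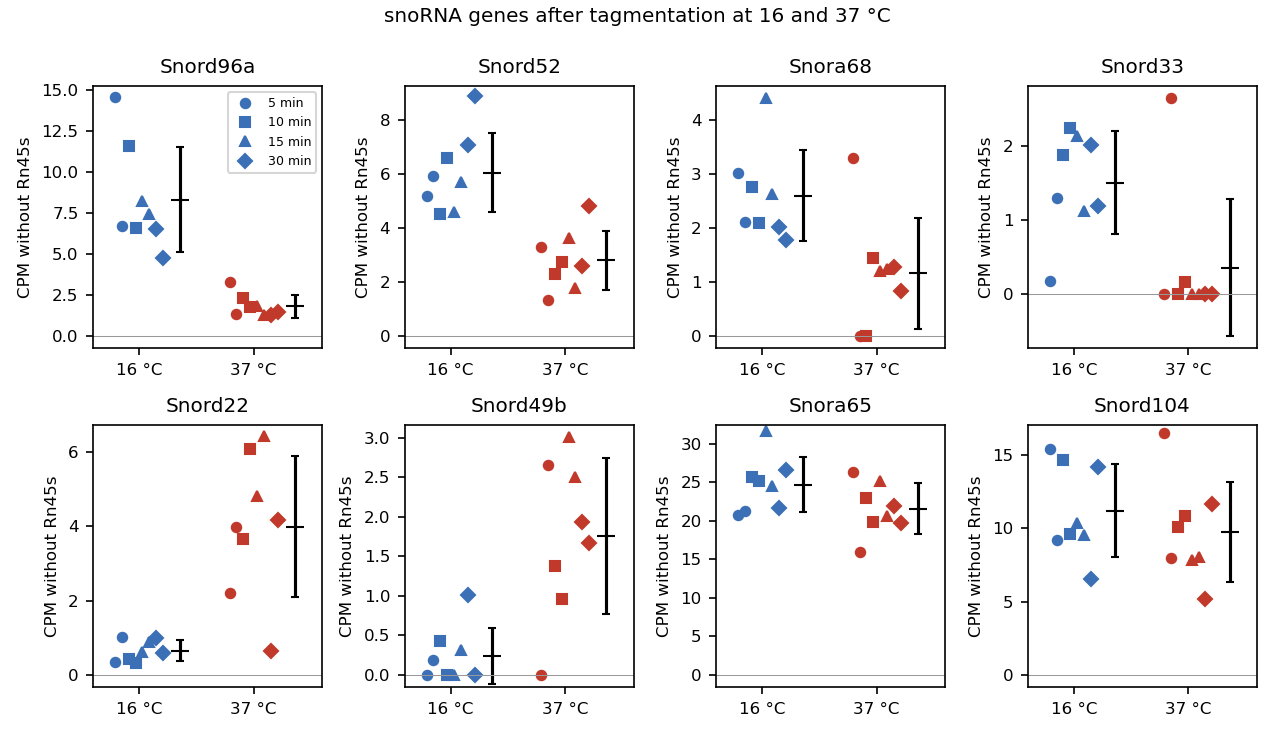
CPM without Rn45s of 8 snoRNA genes in the libraries at 16 °C and 37 °C (8 each), with the marker shape giving the time and black bars the mean ± SD. The upper row shows Snord96a, Snord52, Snora68 and Snord33, lower at 37 °C, and the lower row Snord22 and Snord49b, higher at 37 °C, beside Snora65 and Snord104, which did not pass the test.

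The second comparison set the 8 SET-seq libraries of cytoplasm without antibody beside the 4 in vitro libraries of total RNA at 37 °C for 5 min or from 300 ng. Hprt was 66.2 to 478 CPM in SET-seq and 0 to 0.195 CPM in vitro, with no overlap, so that the cells and the cytoplasmic fraction cannot be told apart. Of the 116 genes, 12 were tested among 12493, and 4 fell while 0 rose (edgeR adjusted p below 0.05). Of all genes tested, 21.2% fell and 10.7% rose. At an unadjusted p below 0.05 the counts were 5 and 0, and DESeq2 called 4 and 0. The median log2 fold change was -1.53 over the 12 genes and -0.20 over all genes. Of 13 other genes of at most 350 bases, 2 rose and 2 fell. Leaving out 300 ng replicate 2, 10 cells replicate 1 or 1000 cells replicate 1 left 2 genes that fell, and leaving out 10 cells replicate 2 or 100 cells replicate 2, with 23 or 21 genes tested, gave 8.

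Snora65 had 0 CPM in the lowest, 2.82 in the median and 10.2 in the highest SET-seq library, and 26.4, 15.9, 26.9 and 31.0 CPM in the in vitro libraries. The groups did not overlap. It fell by 3.34 ± 0.46 on the log2 scale (edgeR adjusted p = 0.000118), and by 1.72 with the 10000-cell libraries alone (edgeR adjusted p = 3.29e-05). Pooled over libraries the level was 6.87 times lower, with a counting interval of 5.66 to 8.38 times. Its host Rpl12 fell by 1.50 ± 0.32 (edgeR adjusted p = 0.00294).

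Snord22 had counts in 3 of the 8 SET-seq libraries, the highest at 0.704 CPM, and 2.20, 3.98, 3.31 and 2.98 CPM in vitro. The groups did not overlap, and the pooled level was 13.1 times lower in SET-seq, with a counting interval of 5.99 to 33.8 times (edgeR adjusted p = 0.00149). Snord22 entered this test through the in vitro libraries alone, so it could be called only as lower. The fitted log2 fold change of -5.04 ± 0.94 averages conditions with no count and depends on the prior count. With 10000 cells alone it was -2.39 (edgeR adjusted p = 0.0124). Snhg1, its host, had -0.64 ± 0.29 (edgeR adjusted p = 0.105).

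Snord104, the only abundant gene of the set with no host in the deposited coordinates, had 0, 5.04 and 15.3 CPM in SET-seq and 16.5, 7.96, 6.04 and 9.52 CPM in vitro. The groups overlapped. The log2 fold change was -2.58 ± 0.76 (edgeR adjusted p = 0.0188), but without the 10-cell libraries it was -0.74 (edgeR adjusted p = 0.176) and with 10000 cells alone -0.49 (edgeR adjusted p = 0.24). Snora61 had 0, 0.695 and 5.11 CPM in SET-seq and 1.10, 9.28, 2.34 and 2.56 CPM in vitro, again overlapping. Like Snord22, it entered this test through the in vitro libraries alone and could be called only as lower. Its log2 fold change of -3.25 ± 0.90 (edgeR adjusted p = 0.0141) became -2.15 without the in vitro library at 37 °C, 5 min, replicate 2 (edgeR adjusted p = 0.284). The call for Snord104 was also lost without 300 ng replicate 2 (edgeR adjusted p = 0.0903), 37 °C, 5 min, replicate 1 (0.117), or the SET-seq libraries of 10 cells replicate 1 (0.065), 1000 cells replicate 1 (0.0614) or 10000 cells replicate 2 (0.0638). That for Snora61 was also lost without 300 ng replicate 1 (edgeR adjusted p = 0.0637) or replicate 2 (0.0794), 10 cells replicate 1 (0.0539) or 1000 cells replicate 1 (0.0639).

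The other genes tested did not pass. Snord52 had 0, 3.05 and 10.2 CPM in SET-seq against 3.30, 1.33, 5.45 and 3.77 CPM in vitro, with a log2 fold change of -0.40 ± 0.60 (edgeR adjusted p = 0.649). Snord42b, in Rpl23a, had 0, 1.48 and 6.93 CPM in SET-seq against 1.10, 1.33, 0.390 and 0.924 CPM, the only tested gene with a fold change above 0 (1.25 ± 0.79, edgeR adjusted p = 0.246). Without the 2 shallow libraries, 21 of the genes were tested and 8 fell, among them the 4 above. Among mesoderm markers, T fell by 2.56 (edgeR adjusted p = 0.000131), from 67.6 to 85.7 CPM in vitro to 0 to 46.0 CPM in SET-seq. Eomes had -0.76 and did not pass (edgeR adjusted p = 0.224), and Mixl1 was at most 2.26 CPM in either group. The summed level of these 3 markers was 72.9 to 101 CPM in vitro and 0 to 51.1 CPM in SET-seq, and its part in the result was not tested.

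**Figure D4:**
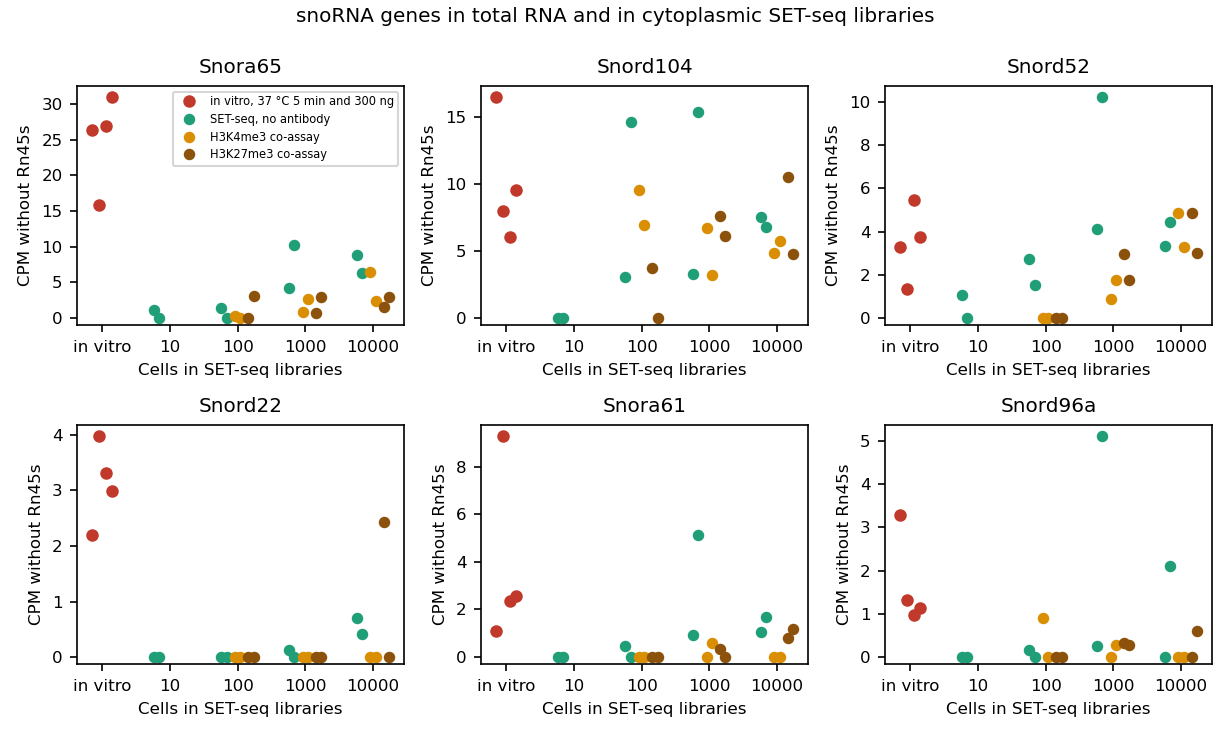
CPM without Rn45s of 6 snoRNA genes in the 4 in vitro libraries (red) and in SET-seq libraries by cell number, without antibody (green) or from the H3K4me3 and H3K27me3 co-assay (orange, brown), 1 point per library. Snora65 and Snord22 lie below the in vitro libraries in all libraries without antibody, while for Snord104 and Snora61 the groups overlap.

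Pooled over co-assay libraries from cytoplasm, Snora65 was at 1.65 CPM and Snord52 at 1.21 CPM, below the 4.26 and 3.25 CPM of SET-seq without antibody. Snord104 was alike, at 5.36 CPM against 4.76 CPM. In single co-assay libraries Snora65 had 0, 2.04 and 6.49 CPM (lowest, median, highest of 12 libraries), Snord104 0, 5.92 and 10.5 CPM, and Snord52 0, 1.75 and 4.87 CPM. Snord22 had 3 counts in 1 of the 12 libraries and none in the other 11. That library, H3K27me3 from 10000 cells replicate 1, was at 2.42 CPM. This lies within the 2.20 to 3.98 CPM of the 4 in vitro libraries set beside SET-seq. For Snora65 all 12 co-assay libraries were below the 16 in vitro libraries at 16 or 37 °C.

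The third comparison set the 2 ligation-based libraries beside the 16 in vitro libraries at 16 or 37 °C. Of the 116 genes, 25 were tested among 12880, and 7 rose and 4 fell (edgeR adjusted p below 0.05). Several of these entered the test through counts in 1 group alone, which sets the direction in which they can be called. Of all genes tested, 42.1% rose and 38.9% fell. The median log2 fold change was 0.19 over the 25 genes and 0.04 over all genes, while of 20 other genes of at most 350 bases 5 rose and 11 fell, with a median of -1.26. RNA selection, priming and library chemistry all differed between the groups, as did the cells by their Hprt (181.2 and 184.3 CPM after ligation, at most 1.29 CPM and 8 counts in all in vitro), and these cannot be told apart. Leaving out any in vitro library but 37 °C, 15 min, replicate 2 raised the number tested to between 32 and 36, by the filter's construction, and the number that rose to between 11 and 14. This comparison shares its in vitro libraries with the comparison of temperatures, and the SET-seq comparison shares those at 37 °C for 5 min.

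The 2 genes with most counts after tagmentation fell. Snora65 had 4.34 and 5.47 CPM after ligation and 15.9, 22.4 and 31.7 CPM (lowest, median, highest) in vitro, without overlap, and fell by 2.48 ± 0.16 (log2, edgeR adjusted p = 2.43e-14). Snord104 had 1.14 and 1.94 CPM against 5.15, 9.86 and 16.5 CPM, also without overlap, and fell by 3.02 ± 0.29 (edgeR adjusted p = 1.53e-10). The 6 genes without host in the deposited coordinates took 2.31 and 2.94% of counts on the 116 genes after ligation and 8.33 to 19.5% in vitro. Snord104 is among these 6, with 43 counts after ligation and 810 in vitro. Snord89, also among them, had 9 and 6 counts after ligation and at most 6 in an in vitro library. The contrast thus rests on Snord104 and does not describe the 6 genes as a class. Snord52 had 1.35 and 1.01 CPM against 1.33, 4.53 and 8.87 CPM, met the in vitro libraries at their lowest value, and fell by 2.03 ± 0.30 (edgeR adjusted p = 6.43e-07). Snord104 and Snord52 entered this test through the in vitro libraries alone, so they could be called only as lower. Snora65 had counts enough in both groups.

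Snora3, in Rpl27a, had 0.360 and 0.427 CPM after ligation and 0, 0.905 and 3.30 CPM in vitro, overlapping. It too entered the test through the in vitro libraries alone and could be called only as lower. It fell by 1.58 ± 0.53 (edgeR adjusted p = 0.00795), a call lost without the in vitro library at 37 °C, 10 min, replicate 2 (edgeR adjusted p = 0.999) and without ligation replicate 1 (edgeR adjusted p = 0.06) or replicate 2 (edgeR adjusted p = 0.0914).

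Genes near 0 after tagmentation were among those that rose. Snora81, Snord49a, Snord32a and Snord42b passed the filter on low counts through the 2 ligation-based libraries alone. They could therefore be called only as higher after ligation, and their direction was set by the filter. Snora81, in Eif4a2, had 2.28 and 2.30 CPM after ligation and at most 0.535 CPM in vitro, where 16 libraries held 5 counts. The groups did not overlap, and the pooled level was 35.0 times higher, with a counting interval of 14.2 to 111 times (fitted log2 fold change 5.49 ± 0.66, edgeR adjusted p = 6.35e-08). Snord49a had 2.45 and 1.85 CPM against at most 0.457 CPM, and a pooled level 20.5 times higher, with an interval of 9.76 to 49.6 times (edgeR adjusted p = 3.03e-07). Its neighbour Snord49b, which rose with temperature, had 1.01 and 1.85 CPM against 0 to 3.00 CPM and did not pass (0.92 ± 0.46, edgeR adjusted p = 0.0653).

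Snord32a, in Rpl13a, had 1.80 and 1.85 CPM against at most 1.38 CPM and rose by 3.66 ± 0.58 (edgeR adjusted p = 2.54e-06). Snora7a, in Rpl32, had 2.45 and 2.56 CPM against 0 to 3.00 CPM and rose by 2.65 ± 0.51 (edgeR adjusted p = 3.13e-05). Snord42b had 3.77 and 3.88 CPM against at most 1.38 CPM and rose by 2.01 ± 0.32 (edgeR adjusted p = 1.58e-06). Snord32a and Snord42b did not overlap with the in vitro libraries, whereas Snora7a did. The seventh, Snora31, in Tpt1, named after its values were seen, had 2.35 and 2.01 CPM against at most 1.84 CPM and rose by 1.00 ± 0.37 (edgeR adjusted p = 0.0163). Near copies of these genes in the genome were not searched for, and reads that fit several places were not counted.

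Snord22 after ligation, at 6.04 and 5.47 CPM, lay above all 16 °C libraries and within those at 37 °C. It rose by 1.51 ± 0.26 against all 16 in vitro libraries (edgeR adjusted p = 6.74e-06), by 2.85 against those at 16 °C, and had a log2 fold change of 0.21 against those at 37 °C (edgeR adjusted p = 0.482). Genes in the listed noncoding hosts, Snord22 among them, took 30.2 and 26.4% of counts on the 116 genes after ligation.

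The signs of the fold changes of snoRNA genes and their hosts were set side by side. With temperature, 6 of 10 genes with a tested host had the sign of the host, in SET-seq 8 of 11 and after ligation 12 of 24. After ligation the median log2 fold change was 0.32 for the 24 snoRNA genes and -2.32 for their hosts. Many hosts encode ribosomal proteins, which have processed pseudogenes, and uniquely mapped reads alone were counted, so host levels are uncertain.

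Set against the host per kilobase, Snora65 was at 140% of Rpl12 at 16 °C, 151% at 37 °C, 60.2% in SET-seq and 222% after ligation. Snord96a was at 1.96% of Rack1 at 16 °C, 0.413% at 37 °C and 2.92% after ligation. Snord22 was at 3.02% of Snhg1 at 16 °C, 13.3% at 37 °C, 1.39% in SET-seq and 43.6% after ligation. Snord52 was at 34.2% of its host at 16 °C, 15.3% at 37 °C, 14.7% in SET-seq and 16.5% after ligation. Without strand in the counting, reads antisense to the gene are included in these levels.

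**Figure D5:**
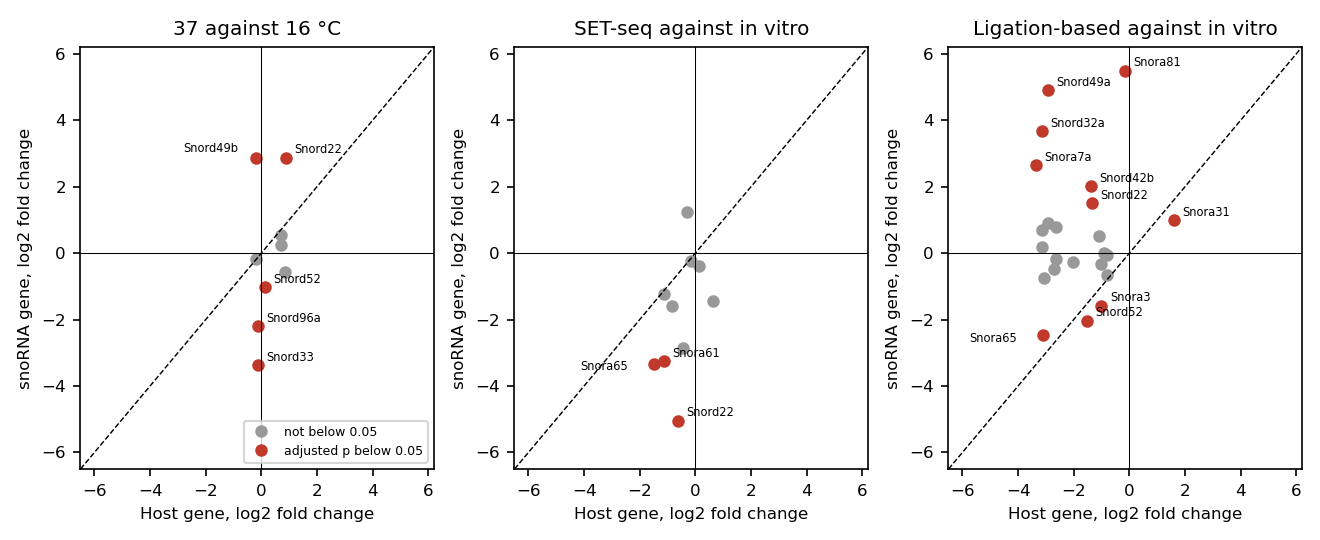
Log2 fold change of the tested snoRNA genes with a tested host, Snora68 left out (vertical) against that of its host gene (horizontal) in 3 comparisons, with red points for snoRNA genes with edgeR adjusted p below 0.05 and a dashed line of equal change. In the ligation panel most points lie left of 0, with hosts lower, while the snoRNA genes spread to both sides of 0.

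The wider host set was also counted. Of all genes tested, 32.0% rose and 31.4% fell at 37 °C, and 10.7% rose and 21.2% fell in SET-seq. After ligation 42.1% rose and 38.9% fell, and in KO libraries 27.8% rose and 29.5% fell. Of the hosts found from coordinates, 45 of 80 tested rose and 18 fell at 37 °C, 6 of 81 rose and 28 fell in SET-seq, 21 of 81 rose and 46 fell after ligation, and 24 of 75 rose and 32 fell in KO libraries. Of a list of noncoding hosts, 7 of 20 rose and 3 fell at 37 °C, 2 of 20 rose and 7 fell in SET-seq, 4 of 20 rose and 16 fell after ligation, and 0 of 17 rose and 15 fell in KO libraries. Gas5, host of several Snord genes, rose by 1.74 ± 0.22 at 37 °C (edgeR adjusted p = 7.72e-08).

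Transcripts of the proteins that bind these RNAs were read in the same fits, and their changes are given on the log2 scale. The numbers called stand beside the shares of all genes tested given with the hosts. Of 4 box C/D proteins, Fbl (fibrillarin), Nop58 and Nop56 rose at 37 °C by 0.87, 1.20 and 0.32, and Snu13, which binds the kink-turn of the box, fell by 0.62. In SET-seq Fbl fell by 2.41, Nop58 by 0.79 and Nop56 by 0.61, and Snu13 rose by 1.71. After ligation Nop58 rose by 0.93, Snu13 fell by 2.47, and Fbl and Nop56 did not pass. In KO libraries 3 were tested, of which Nop58 and Nop56 rose by 0.98 and 0.49 and Snu13 fell by 1.23.

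Of 4 box H/ACA proteins, 2 rose and 1 fell at 37 °C. In SET-seq Gar1 and Dkc1 (dyskerin) fell by 1.47 and 0.77, and Nhp2 and Nop10 rose by 0.91 and 0.98. After ligation 0 rose and 2 fell, Gar1 by 1.43 and Dkc1 by 0.41, and in KO libraries 0 rose and 2 fell, Nhp2 by 1.54 and Nop10 by 0.92. Of 12 assembly and maturation factors, 6 rose and 5 fell at 37 °C, 1 rose and 1 fell in SET-seq (Znhit3 rose by 1.68 and Nolc1, a chaperone of these particles, fell by 1.35), 1 rose and 8 fell after ligation, and 6 rose and 4 fell in KO libraries. Of 6 genes listed for the Cajal body (Coil, Wrap53, Smn1, Ice1, Usp1 and Ell), 1 rose and 1 fell at 37 °C and in SET-seq. Wrap53, which brings scaRNAs to Cajal bodies, rose by 1.80 in SET-seq. Of the same list, 3 rose and 3 fell after ligation, and 1 rose in KO libraries. The list was not checked gene by gene, and Usp1 may not belong on it.

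Other RNAs gave a reference for the classes, again beside the shares of all genes tested given with the hosts. Of other small noncoding RNA genes, 7 of 11 tested rose and 2 fell at 37 °C, 1 of 12 rose and 2 fell in SET-seq, 4 of 16 rose and 8 fell after ligation, and 1 of 5 rose and 3 fell in KO libraries. Of 4 nuclear-retained long RNAs, 2 rose at 37 °C, among them Malat1 by 0.95. In SET-seq 1 of the 4 fell, Malat1 by 1.06 (edgeR adjusted p = 0.00822), against the larger decreases of Snora65 and Snord22 given above. After ligation 3 rose, among them Neat1 by 2.52, and in KO libraries 2 rose and 1 fell.

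The fourth comparison set KO libraries beside wild-type (WT) libraries, taken as the H3K27me3 co-assay from 10000 cells. Aebp2 itself had 65.5 and 76.0 CPM in WT, 15.7 and 15.0 CPM in KO1 and 49.7 and 30.3 CPM in KO2, lower in all 4 KO libraries, and a CRISPR edit need not remove the RNA. The 116 genes took 31.4 and 25.7 CPM in KO1 and 22.9 and 18.7 CPM in KO2 (mean 24.7 ± 5.33, SD, n = 4), against 45.3 and 33.9 CPM in WT (mean 39.6 ± 8.01, SD, n = 2). The groups did not overlap, but each KO library rested on only 21 to 32 counts, and the counting interval of KO1 replicate 1, at 21.5 to 44.3 CPM, covered the lower WT library. With all 6 H3K27me3 co-assay libraries as WT, the difference of the means shrank from -14.9 to -3.88 CPM.

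None of the 116 genes had counts enough for the test in KO libraries, where 27.8% of 9523 genes rose and 29.5% fell. Without the filter on low counts edgeR gave 59 of them a p, 0 had an unadjusted p below 0.05 and the lowest was 0.0626, so no change of a single gene was detectable at this depth. Snord104 had 2.94, 5.35, 2.98 and 0.890 CPM in KO and 10.5 and 4.80 CPM in WT, overlapping. Snora65 had 0.981, 1.07, 0 and 1.78 CPM against 1.62 and 3.00 CPM, overlapping as well. Scarna6 had 3 counts in 1 KO library and none in WT.

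Other measures differed between these groups too. Hprt was 291 and 310 CPM in WT and 0 to 2.14 CPM in KO, where 1 of the 4 libraries held the only 2 counts, so that the edit in Aebp2 and a difference between the cells cannot be told apart. Rn45s took 48.8 to 56.7% of counts in KO and 22.0 and 23.4% in WT. Summed mESC markers were at 3510 to 4060 CPM in KO and 5440 to 5540 CPM in WT, with 4 of 8 lower (Klf4, Tdgf1, Zfp42 and Nanog) and 0 higher, and Eomes rose by 1.66. The summed mesoderm markers were at 36.4 to 43.7 CPM in KO and 17.4 to 21.8 CPM in WT, a difference made by Eomes alone. T had a median of 4.16 CPM in KO and 5.74 CPM in WT, and Mixl1 had 2.05 and 2.26 CPM. The part of these in the lower share was not tested.

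Among the in vitro libraries, the amount of Tn5 and of RNA were also varied. With 25, 50 and 100 ng/µl Tn5 the 116 genes took 91.2, 79.6 and 93.1 CPM in replicate 1 and 123.5, 124.5 and 124.5 CPM in replicate 2. All 3 libraries of replicate 2 lay above those of replicate 1, and they were deeper, with 15725615 to 17647365 total counts against 3710685 to 7739123. Snord104 had 3.96, 5.26 and 3.79 CPM in replicate 1 and 25.6, 30.1 and 27.9 CPM in replicate 2, and Snora65 had 30.6, 31.8 and 33.0 CPM against 24.9, 25.0 and 28.5 CPM. For both genes the replicates separated completely while the Tn5 amounts did not, so differences between amounts were within the spread of replicates.

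With 3 ng of RNA the genes took 79.6 and 74.3 CPM, beside 69.5 and 77.7 CPM with 300 ng. With 30 pg they took 111.5 and 148.4 CPM, but 6 and 3 genes held all of it. Snora65 was lower with less RNA, with 26.9 and 31.0 CPM at 300 ng, 15.3 and 5.44 CPM at 3 ng and 0 in both 30 pg libraries, without overlap between amounts. Snord104 had 6.04 and 9.52 CPM at 300 ng, 12.3 and 11.8 CPM at 3 ng and 42.6 and 64.9 CPM at 30 pg, likewise without overlap and in the opposite order. With 2 libraries an amount these values were not tested, and in the 30 pg libraries few counted molecules can set a level.

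The scaRNA genes were near the limit of detection. Scarna13, in Snhg10, had the highest mean over conditions, 0.312 CPM on 98 counts in all, and 65 of its 273 bases are shared with another exon. Scarna17, without host, had 30 counts in 11 libraries and none in the ligation-based libraries, which allows up to 0.107 CPM there. Scarna8, in Haus6, had 17 counts and Scarna6, in Atg16l1, 8 counts. No scaRNA gene had counts enough for a test in any comparison.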

How the data were processed

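Expression was measured in 54 bulk libraries of the series' 134 samples, 2 per condition in 27 conditions. The single-cell and chromatin samples were not analysed here. The authors trimmed reads with Trim Galore 0.6.4, aligned them to mm9 with STAR 2.5.4b and deposited counts of read pairs per gene from featureCounts 2.0.0 (2.0.1 for KO libraries), over RefSeq exons of mm9, without strand and without reads that mapped to several places or genes. The deposited values are raw counts, and everything below was computed from them.

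Counts of Rn45s were removed, and CPM were taken over the rest (188275 to 16888686 counts per library), so that 3 counts, the limit that a count of 0 allows, came to 0.178 to 15.9 CPM. Comparisons used edgeR 4.0.16 in R 4.3.3 (TMM scaling, filterByExpr with a count minimum of 10, quasi-likelihood test), fitted on all genes with Benjamini-Hochberg adjustment over all genes tested and a threshold of 0.05. Temperature was fitted with time as a term, and the other comparisons averaged condition means. The filter can be met by a few libraries of 1 group, and a gene near 0 in the other group can then be called only as higher in the first. DESeq2 1.42.0, other filters and scalings, Rn45s kept, other reference libraries and leaving out each library were alternatives, and the scripts were tested on simulated data. Host genes were genes of the same strand containing the snoRNA gene in the deposited coordinates, and sequences came from the NCBIM37 (mm9) genome with GENCODE vM1. Shares of counts carry exact 95% Clopper-Pearson intervals, pooled ratios exact binomial ones.

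The genes and all lists (box C/D and H/ACA proteins, assembly factors, Cajal body, noncoding hosts, other small noncoding RNAs, nuclear-retained RNAs and cell type markers) were chosen with earlier results of these data known, so no p is given for the summed share. The named genes were those with the highest mean level in each class and those with the largest changes past the threshold. Replicate numbers did not pair the libraries within the 4 comparisons, and pairing was not checked among the libraries with varied Tn5, whose replicates stood apart. The host of 1 snoRNA gene is not reported here.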

Additional observations from a re-analysis of the deposited data

Results flagged for a closer look

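In 11 cases a library stood farther from the others of its group than Dixon's 95% value allows. Chance alone flags about 1 in 20 groups, and 50 gene and group values were looked at. Over the 16 °C libraries, Snora68 had 4.41 CPM (29 counts) at 15 min, replicate 1, against 1.77 to 3.01 CPM in the others, and Snord49b had 1.01 CPM (2 counts) at 30 min, replicate 1, against 0 to 0.435 CPM. Over the 37 °C libraries, the 5 min libraries stood apart in 3 genes, on 2 to 7 counts each: Snora68 with 3.29 CPM in replicate 1 (others 0 to 1.44), Snora61 with 9.28 CPM in replicate 2 (others 0.917 to 2.08) and Snord33 with 2.65 CPM in replicate 2 (others 0 to 0.16). Among the 4 in vitro libraries set beside SET-seq, Snord96a had 3.29 CPM (3 counts) at 37 °C, 5 min, replicate 1, against 0.974 to 1.33 CPM.

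In SET-seq, the shallow library of 1000 cells replicate 2 was the highest in 4 genes, on 1 or 2 counts each. It had 10.2 CPM of Snord52 (others 0 to 4.44), 5.11 CPM of Snord96a (others 0 to 2.11), 10.2 CPM of Snord99 (others 0 to 2.96) and 5.11 CPM of Snora61 (others 0 to 1.69). Snora3 had 4.06 CPM (15 counts) in 10 cells replicate 1, against 0 to 1.07 CPM in the others.

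Snora61 differed between 37 and 16 °C in opposite directions at 15 and at 30 min, with a mean difference over all libraries of 0.603 CPM, and this difference between times was not tested.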

How the results depend on the processing

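Of 20 results for named genes under 465 alternatives, 440 kept their direction and their side of the threshold, 25 kept the direction and lost the call, and 0 reversed. Depth limits most of the 116 genes, which had too few counts for any test. At 37 against 16 °C, the number of snoRNA genes that rose (2) was 6 without the filter on low counts, 1 with Rn45s kept, 0 with the 5 min or the 30 min libraries alone and 1 to 4 on leaving out a library, and the number that fell (4) was 1 at 5 min alone, 0 at 30 min alone and 3 to 5 on leaving out a library. In SET-seq, the number that fell (4) was 2 with 10000 cells alone, 1 with 37 °C for 5 min alone as reference, 2 with 300 ng alone, 13 with the Tn5 amounts as reference (where 1 rose), 8 without the libraries under 250000 counts, an alternative chosen after seeing the data, and 2 to 8 on leaving out a library. After ligation, the number that rose (7) was 29 without the filter, 3 against 37 °C alone and 8 to 14 on leaving out a library, and the number that fell (4) was 8 against 16 °C alone and 3 to 4 on leaving out a library. Fewer samples or another filter change how many genes can be tested by construction, and a lone library was taken to vary like the other groups. Beyond this the cause was not tested.

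The difference in summed share between 37 and 16 °C (-8.87 CPM) was -21.8 CPM with Rn45s kept and -10.3 to -7.06 CPM on leaving out a library. For SET-seq (-34.0 CPM) it was -64.2 CPM against the Tn5 amounts, a reference added after seeing the data, and -41.9 to -28.0 CPM. For ligation (1.42 CPM) it was 20.9 CPM with Rn45s kept, 19.6 CPM without Snora65 and 0.271 to 2.07 CPM. For KO (-14.9 CPM) it was -3.88 CPM with all 6 H3K27me3 libraries as WT and -29.5 CPM with SET-seq of 10000 cells as WT, both added after seeing the data, and -20.6 to -9.28 CPM. The median number of genes detected in a library (33.5) was 8.06 at the depth of the shallowest library and 7 at a minimum of 5 counts.

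With the replicate number as a block, 3 genes rose and 4 fell with temperature, 0 and 4 in SET-seq, 7 and 4 after ligation, and 0 and 0 in KO, where 0 genes were tested. Same-numbered libraries deviated from their group means together in few cases (correlation above 0.1 in 5 of 28, 3 of 15, 2 of 36 and 0 of 3 pairs), so the numbers were not taken to pair libraries.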
